A study of Mus musculus with 4 samples.

Results

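Open chromatin that lies where the ends of neighbouring genes meet was described in mouse PVH, the paraventricular nucleus of the hypothalamus. The peaks of 4 libraries on chromosomes 1 to 19 were merged into regions wherever they shared at least 1 bp. A region was kept when all 4 libraries had a peak in it and it reached the windows of 1 kb around the ends of 2 or more protein-coding genes whose bodies do not overlap. Of 14331 regions with a peak in all 4 libraries, 979 met this rule and are called joining regions here (6.83%, 95% Wilson interval 6.43 to 7.26%). They are 12.5% of the 7848 shared regions at any gene end. The comparison class is the 6447 shared regions at the end of a single gene. A further 422 shared regions lay only at the ends of genes that overlap each other, and 6483 lay at no gene end. A wider region reaches more windows, so width is in part set by this rule. Peak strength and rank enter it only through the need for a called peak in all 4 libraries. A higher rank came with wider peaks, as described below, so rank may not be independent of the rule.

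The libraries came from assay for transposase-accessible chromatin with sequencing (ATAC-seq), in which a transposase cuts and tags open DNA. All mice, controls included, had the genotype Otp fl/fl; Ai14, that is, loxP-flanked alleles of the homeobox gene Otp, which acts in hypothalamic neurons, and a reporter that Cre switches on. They received an adeno-associated virus as adults, AAV-GFP in the 2 control libraries and AAV-Cre in the 2 knockout libraries, and the PVH was dissected 4 weeks later, at 12 weeks of age. The study asked whether adult loss of Otp lowers accessibility near its targets. The sources used here do not give the promoter that drives Cre, the number of mice per library or the share of infected cells. No sorting of infected nuclei is named, so each library may hold uninfected cells too. Nothing in the labels ties each library to animals of its own, so p-values measure only the spread between these libraries, which may be technical.

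The library lists differed in length, with 57682 and 34100 peaks after AAV-GFP and 23384 and 26612 after AAV-Cre. Their values differed too. Over all 14331 shared regions the median fold enrichment was 8.94 and 7.98 after AAV-GFP and 6.55 and 6.85 after AAV-Cre. The median −log10 p was 24.5, 17.8, 11.6 and 12.6 in the same order. A lower fold after AAV-Cre at a named pair thus cannot by itself be read as a change at that pair. Tissue markers were sparsely covered. A peak at a gene end was found in every library for none of the 6 PVH markers, and Avp, which encodes vasopressin, had none in any library. Such peaks were present in all 4 libraries for 2 of 5 neuronal markers (Snap25 and Syt1) and 1 of 4 astrocyte markers (Gfap), and for 0 of 3 oligodendrocyte and 0 of 3 thalamic markers. All 4 microglial and all 4 endothelial markers lacked a gene-end peak in every library. No marker of any of these lists lay at a joining region.

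Many mammalian genes sit in pairs that start close together and are read in opposite directions, so that one stretch of DNA serves as the promoter of both. Such bidirectional promoters are usually rich in CpG dinucleotides, poor in TATA boxes and typical of housekeeping genes, including those of DNA repair, mitochondria and histones. A transposase peak over such a pair marks a nucleosome-poor gap that both genes share. Where the end of one gene meets the start of the next, the peak may belong to the start alone, and where the ends of both meet, no promoter is expected from the gene models.

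The stretches between facing gene starts are short enough to print. Of the 477 joining regions at pairs of facing starts, the sequence between the starts could be read in full for 157, and 118 of these held at least 1 of 8 short promoter motifs. Those below are shown because they come from pairs of histone, DNA repair, respiratory chain, mitochondrial ribosome and antigen processing genes, or from a pair with a large shift toward lower rank after AAV-Cre. Each is the plus strand of RefSeq GRCm38.p6 (mm10), from the base after one gene start to the base before the other. Capitals mark an exact match, on either strand, to NFY (CCAAT), SP1 (GGGCGG), ETS (CCGGAAG), NRF1 (CGCATGCG), CRE (TGACGTCA) or the TATA box (TATAAA).
H2bc23/H2ac23, chr13:21810200-21810366: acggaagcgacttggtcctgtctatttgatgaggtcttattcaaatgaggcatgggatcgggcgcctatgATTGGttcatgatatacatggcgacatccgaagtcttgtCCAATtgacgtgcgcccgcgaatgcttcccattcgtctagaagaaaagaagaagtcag
H2ac15/H2bc15, chr13:21753913-21754075: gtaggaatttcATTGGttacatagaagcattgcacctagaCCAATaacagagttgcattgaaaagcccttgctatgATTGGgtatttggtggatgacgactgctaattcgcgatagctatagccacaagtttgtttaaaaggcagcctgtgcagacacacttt
H2ac8/H2bc8, chr13:23571221-23571399: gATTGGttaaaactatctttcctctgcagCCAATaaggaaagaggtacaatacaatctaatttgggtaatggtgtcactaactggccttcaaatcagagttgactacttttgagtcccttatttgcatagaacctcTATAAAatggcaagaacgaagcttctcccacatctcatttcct
Xrcc4/Tmem167, chr13:90089609-90089666: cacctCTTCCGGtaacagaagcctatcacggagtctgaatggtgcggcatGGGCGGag
Rpa3/Umad1, chr6:8259142-8259287: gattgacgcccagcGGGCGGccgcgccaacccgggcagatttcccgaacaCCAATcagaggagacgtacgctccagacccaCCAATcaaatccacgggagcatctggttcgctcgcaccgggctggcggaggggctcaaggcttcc
Vmac/Ndufa11, chr17:56717700-56717761: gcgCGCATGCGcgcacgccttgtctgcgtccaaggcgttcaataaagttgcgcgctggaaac
Mrpl50/Zfp189, chr4:49521084-49521175: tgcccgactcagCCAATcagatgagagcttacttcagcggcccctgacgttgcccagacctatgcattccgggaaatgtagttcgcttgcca
Xab2/Pet100, chr8:3621335-3621550: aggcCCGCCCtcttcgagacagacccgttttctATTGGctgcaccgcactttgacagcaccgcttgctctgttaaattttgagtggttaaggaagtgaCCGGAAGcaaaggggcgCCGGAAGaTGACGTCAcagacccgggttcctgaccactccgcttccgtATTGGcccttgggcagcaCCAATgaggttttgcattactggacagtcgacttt
Psmb9/Tap1, chr17:34187331-34187555: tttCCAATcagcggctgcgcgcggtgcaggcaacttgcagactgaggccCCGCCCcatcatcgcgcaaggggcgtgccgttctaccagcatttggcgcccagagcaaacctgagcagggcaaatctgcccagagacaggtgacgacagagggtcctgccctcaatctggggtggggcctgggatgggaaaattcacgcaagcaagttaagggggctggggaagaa
The 3 histone stretches each carry CCAAT boxes, in both orientations, and the H2ac8/H2bc8 stretch also has a TATA box. The Xrcc4/Tmem167 stretch is 58 bp long and holds an ETS match near the Xrcc4 start and an SP1 match near the Tmem167 start. The stretch between Xab2 and Pet100 holds 4 kinds of motif, with an ETS match 1 base from the CRE match.

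The 979 regions touched the ends of 1912 genes. In 942 regions 2 genes were joined, in 35 regions 3 genes, in 1 region 5 and in 1 region 25. The gap between the closest non-overlapping genes had a median of 186 bp, ran from 0 to 2065 bp and was at most 250 bp in 567 regions. In 580 regions (59.2%) the region itself spanned the facing ends of both genes.

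Strand was known for both genes of the closest pair in 744 regions. Facing starts, called head to head, made up 477 of these (64.1%), and a start facing a gene's 3′ end, called head to tail, 251 (33.7%). In 16 regions (2.15%) the 3′ ends faced each other, called tail to tail. Head-to-head pairs were close, with a median gap of 105 bp, and the region spanned both starts in 414 of 477 (86.8%). Head-to-tail pairs lay 544 bp apart at the median and the region spanned both ends in 38 of 251 (15.1%). No tail-to-tail region spanned both ends. The summit lay between the 3′ ends in 1 of these 16 regions in AAV-GFP 1, AAV-GFP 2 and AAV-Cre 2 and in 0 in AAV-Cre 1, and its median distance from the meeting point was 842 to 884 bp in the 4 libraries.

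Counting from the genes gave the same order. Of 626 head-to-head pairs with a gap of up to 2000 bp, 474 (75.7%, 95% Wilson interval 72.2 to 78.9%) were joined by a region with a peak in all 4 libraries. The share was 257 of 820 (31.3%, 28.3 to 34.6%) for head-to-tail pairs and 19 of 667 (2.85%, 1.83 to 4.41%) for tail-to-tail pairs. By gap, 82.4% of head-to-head pairs were joined at 0 to 250 bp, 83.5% at 251 to 500 bp, 61.9% at 501 to 1000 bp and 26.2% at 1001 to 2000 bp. For head-to-tail pairs these shares were 46.3, 47.9, 47.2 and 12.4%. At gaps up to 1 kb a region at 1 of the facing ends also lies in the other gene's window, so the step beyond 1000 bp follows in part from the rule. The order of the orientations held in each of the 4 gap classes. Pairs are not replicates, so the intervals cover counting error only.

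**Figure D1:**
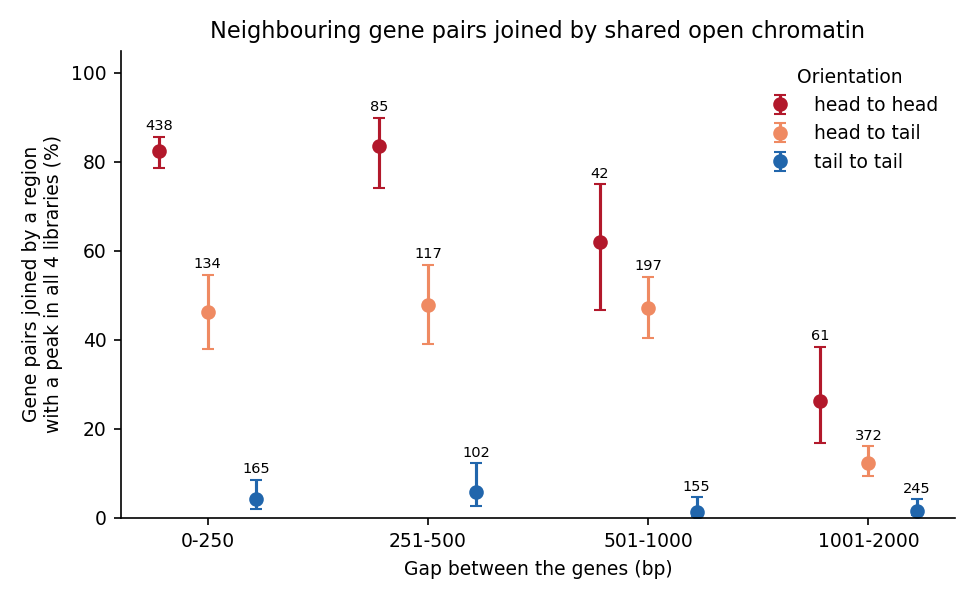
Share of neighbouring gene pairs (y axis, %) that a region with a peak in all 4 libraries joined, by the gap between the genes (x axis, bp) and their orientation. Points are shares, bars are 95% Wilson intervals and numbers above them are pairs. Head-to-head pairs lie highest in every gap class, between 26.2 and 83.5%, and tail-to-tail pairs lowest.

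A list of 15 gene pairs known from textbooks and reviews to share or nearly share a promoter served as a further look at the members. Of these, 7 were joining regions. Atm/Npat, the DNA damage kinase and the activator of histone genes, had the strongest of them (chr9:53536524-53537275, gap 60 bp), with fold enrichments of 17.9 and 19.9 after AAV-GFP and 15.4 and 17.1 after AAV-Cre. Brca1/Nbr1, a double-strand break repair factor and a cargo receptor of autophagy, had 13.5 and 14.4 after AAV-GFP and 12.1 and 10.4 after AAV-Cre (chr11:101551804-101553203, gap 151 bp). Both ranked within the strongest 10% of shared regions in all 4 libraries. Mrps12/Sars2, a ribosomal protein and a tRNA synthetase of mitochondria, had 16.7, 15.8, 8.19 and 11.8 in the same order. Pdcd10/Serpini1, a vascular adaptor and a neuronal protease inhibitor, had 12.0, 12.4, 10.1 and 9.91. The gap of 640 bp at Pdcd10/Serpini1 was the widest of the 7. Mcm4/Prkdc, a replicative helicase subunit and a repair kinase, had 13.0, 12.5, 10.5 and 8.75. Psmb9/Tap1, an immunoproteasome subunit and a peptide transporter of antigen processing, was the weakest of the 7 with 10.2, 8.79, 7.50 and 7.63. All 4 libraries had the peak in each of the 7.

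The other 8 pairs fell outside the rule. Hspd1/Hspe1, Ppat/Paics and Hars/Hars2 had a shared region over both genes, but RefSeq gives gene bodies that overlap by 96, 277 and 4 bp, so the rule left them out. Col4a1/Col4a2 and Surf1/Surf2 had a region at both genes in 3 libraries, and Col4a4/Col4a3 in 0. The Col4a genes encode collagens of basement membranes. At Psmb1/Tbp the genes lie 1611 bp apart and the shared region reached 1 of them.

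Promoter sequence was compared in windows from 250 bp before to 50 bp after each listed start, on both strands. The 822 starts in head-to-head joining regions were set beside the 4311 starts in single-gene regions, all 16457 promoters of the table and the 8152 with no peak in any library. An ETS match (CCGGAAG) was in 30.4% of the head-to-head promoters, 20.3% of the single-gene promoters, 12.2% of all promoters and 3.34% of those without a peak. YY1 (AAGATGGCG) was in 7.06, 3.46, 1.91 and 0.307%, and ZNF143 (ACTACAATT) in 1.70, 1.16, 0.571 and 0.135%. Each of these motifs was more frequent at head-to-head than at single starts. At the 334 starts in the other joining regions ETS was in 30.8%, as often as at facing starts. YY1 (8 starts, 2.40%) and ZNF143 (2 starts, 0.599%) were less frequent there than at single starts, but these counts are small. NRF1 (CGCATGCG) was in 6.33, 4.78, 2.57 and 0.466%, and SP1 (GGGCGG) in 72.5, 71.8, 46.9 and 24.5%, so SP1 was about as frequent at single as at head-to-head starts. NFY (CCAAT) was in 47.3, 43.4, 39.1 and 36.6%. Starts in the other joining regions had NRF1 in 6.29%, SP1 in 70.7% and NFY in 48.2%. NRF1 and NFY were thus about as frequent there as at facing starts. CRE (TGACGTCA) was less frequent at head-to-head than at single starts, with 3.16% and 4.13% (5.39% in the other joining regions). So was the TATA box (TATAAA), with 4.26% and 5.47% (6.59% in the other joining regions), against 21.7% of promoters without a peak. The ratio of observed to expected CpG had medians of 0.867, 0.801, 0.589 and 0.233 in the same 4 sets. Windows of a pair can overlap, so these shares are descriptions with no test. Counted by pair, 169 of 477 (35.4%) had the ETS match in either window and 43 (9.01%) the YY1 match. A match shows letters, not binding.

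The genes of the pairs were grouped by symbol. Of all 20665 protein-coding genes on these chromosomes, 1912 (9.25%) lay at a joining region. Of the 8060 genes at a joining or a single-gene region, the share at a joining region was 23.7%. Replication-dependent histones, which package newly made DNA and sit in tight clusters, stood highest with 40 of 67 genes (59.7%), and in 23 regions both genes of the closest pair were histones. The strongest was H2ac6/H2bc4 (chr13:23683567-23684633), with fold enrichments of 12.3, 12.1, 8.23 and 11.3 in AAV-GFP 1, AAV-GFP 2, AAV-Cre 1 and AAV-Cre 2, the order used from here on. H2ac24/H4bc24 had 9.91, 9.38, 7.83 and 8.36. H2bc23/H2ac23, whose sequence is printed above, had 9.47, 8.75, 8.05 and 7.15. Histone regions were of middling strength for joining regions, with a median mean percentile of 47.8 (0 is the strongest of the shared regions and 100 the weakest) against 35.7 for the genes at joining regions as a whole, taking each gene at its strongest joining region. Histone genes are near copies of each other, and the sources used here do not say how the authors placed reads that match several copies.

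DNA repair genes had 16 of 51 members (31.4%) at joining regions. Among the strongest were Atm/Npat and Brca1/Nbr1, described above, and Xrcc4/Tmem167, of which Xrcc4 acts in end joining, with folds of 23.3, 16.9, 15.8 and 14.9. The 16 regions had a median mean percentile of 19.4, the strongest of the groups. These 3 repair regions ranked within the strongest 10% of shared regions in every library.

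Genes of mitochondria followed. For the respiratory chain and its assembly factors 29 of 98 genes (29.6%) lay at joining regions, led by Atp5e/Prelid3b, an ATP synthase subunit and a lipid transfer protein, with folds of 19.9, 19.8, 13.1 and 11.5. Ndufa5/Asb15 had 16.9, 15.7, 10.3 and 12.2, and Vmac/Ndufa11 had 9.23, 9.31, 9.13 and 8.88. Both Nduf genes encode complex I subunits. The mitochondrial ribosome had 22 of 78 genes (28.2%) there, among them Mrpl41/Pnpla7, Mrps16/Cfap70, Mrps12/Sars2 and Mrpl50/Zfp189. Only Mrpl46/Mrps11 joined 2 genes of that group. Aminoacyl tRNA synthetases, which load amino acids onto tRNAs, had 11 of 37 genes (29.7%). Ears2/Ubfd1, with a gap of 0 bp, had folds of 14.8, 16.5, 13.9 and 12.0. Lyrm4/Fars2 had 11.8, 11.7, 9.50 and 8.93. In both pairs the synthetase is the mitochondrial one.

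The proteasome had 13 of 50 genes (26.0%) at joining regions, with Psmd8/Catsperg1 at 13.9, 14.0, 13.2 and 11.8 and Psme2/Rnf31 at 12.1, 9.94, 8.85 and 9.81. The Rpl and Rps symbols, which include a few S6 kinases and ribosomal-like genes beside the cytosolic ribosome, had 20 of 94 (21.3%). Rpl15/Nkiras1 led them with 15.8, 15.5, 12.1 and 11.9. Zinc finger genes, named Zfp or Zscan, were the exception among the large groups, with 28 of 404 (6.93%), although 208 of them (51.5%) lay at single-gene regions. Zfp654/Cggbp1, described below, was their strongest pair, and Zfp277/Dock4 had 17.7, 17.5, 13.6 and 11.2. None of the 20 neuropeptide and hormone genes of the PVH and none of its 11 listed transcription factors, Otp included, lay at a joining region, while 4 and 3 of them lay at single-gene regions. These are too few to set beside the 23.7% of all genes with a region of either class. By that share, histones had 74.1%, the mitochondrial ribosome 45.8%, the respiratory chain 44.6% and DNA repair 41.0%. Synthetases had 37.9%, the proteasome 36.1%, the Rpl and Rps symbols 30.3% and zinc finger genes 11.9%. No group was tested against the rest.

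Joining regions were more often present in every library than regions at single-gene ends. Of 1410 joining regions seen in any library, 979 (69.4%, 95% Wilson interval 67.0 to 71.8%) had a peak in all 4, against 6447 of 12114 (53.2%, 52.3 to 54.1%) at single-gene ends and 12.5% at no gene end. Regions at the ends of overlapping genes only were close to joining regions, with 422 of 633 (66.7%, 62.9 to 70.2%). A merged region can only widen as more libraries add a peak, and a wider one reaches more windows. The higher share at joining regions is thus in part set by the rule. A peak in both AAV-GFP libraries and in neither AAV-Cre library occurred in 60 joining regions (4.26%) and 797 single-gene regions (6.58%). The converse occurred in 3 and 46. The AAV-Cre lists are shorter, so these counts cannot be read as loss. In bulk tissue, fewer cells with a region open and less opening per cell cannot be told apart.

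Peaks in joining regions were wider than at single-gene ends in 4 of 4 libraries. Their median width was 541, 633, 500 and 519 bp, against 516, 560, 432 and 461 bp. The mean difference was 56.0 bp ± 21.6 (SD, n = 4 libraries; exact 2-sided sign-flip permutation p = 0.125, the smallest that 4 libraries allow). In 802 of 979 joining regions (81.9%) every library had a single peak, close to the 83.0% of single-gene regions, so most joining regions were 1 peak in each library and not a chain of peaks.

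Strength depended on the measure. The median fold enrichment of joining regions was 9.46, 8.84, 7.11 and 7.22, and that of single-gene ends 9.88, 8.72, 6.99 and 7.25. The log2 ratio of these medians averaged -0.0058 ± 0.039 (SD, n = 4), lower in 2 libraries and higher in 2 (exact sign-flip permutation p = 0.875), and its sign turned when AAV-GFP 1 (0.017), AAV-Cre 1 (0.0050) or AAV-Cre 2 (0.0090) was left out. By −log10 p, which also grows with the number of reads in a peak, joining regions ranked stronger in 4 of 4 libraries. Their median percentile among shared regions was 34.8, 31.9, 35.0 and 36.8, and that of single-gene ends 39.1, 40.4, 42.5 and 42.8. The difference was -6.59 points ± 1.82 (SD, n = 4; exact sign-flip permutation p = 0.125). Ranked by fold enrichment in place of −log10 p, it was 0.198 points (exact p = 0.875). The higher rank by −log10 p thus came with wider peaks and without a higher median fold.

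Orientation separated the members. Head-to-head regions had median folds of 10.6, 9.42, 7.47 and 7.69, head-to-tail regions 8.48, 7.92, 6.67 and 6.86, and tail-to-tail regions 6.60, 6.79, 6.17 and 5.58. The log2 ratio of head-to-head to head-to-tail medians was 0.23 ± 0.078 (SD, n = 4), and head-to-head peaks were 126 bp ± 9.97 wider, each in 4 of 4 libraries (exact sign-flip permutation p = 0.125 for both). Tail-to-tail regions ranked a further step down, 31.2 points weaker than head-to-head regions with an SD of 9.93 (4 of 4 libraries; exact p = 0.125). Against the 4993 regions at a single gene start, a class chosen after the data were seen, head-to-head regions were 102.5 bp ± 19.7 wider, 0.074 ± 0.0068 higher in log2 fold and -9.18 points ± 1.34 in percentile (SD, n = 4; 4 of 4 libraries each, exact p = 0.125). Of the head-to-head regions 22.6, 21.2, 17.4 and 18.03% ranked within the strongest 10% of shared regions, against 15.4, 15.2, 14.1 and 14.4% of single starts.

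**Figure D2:**
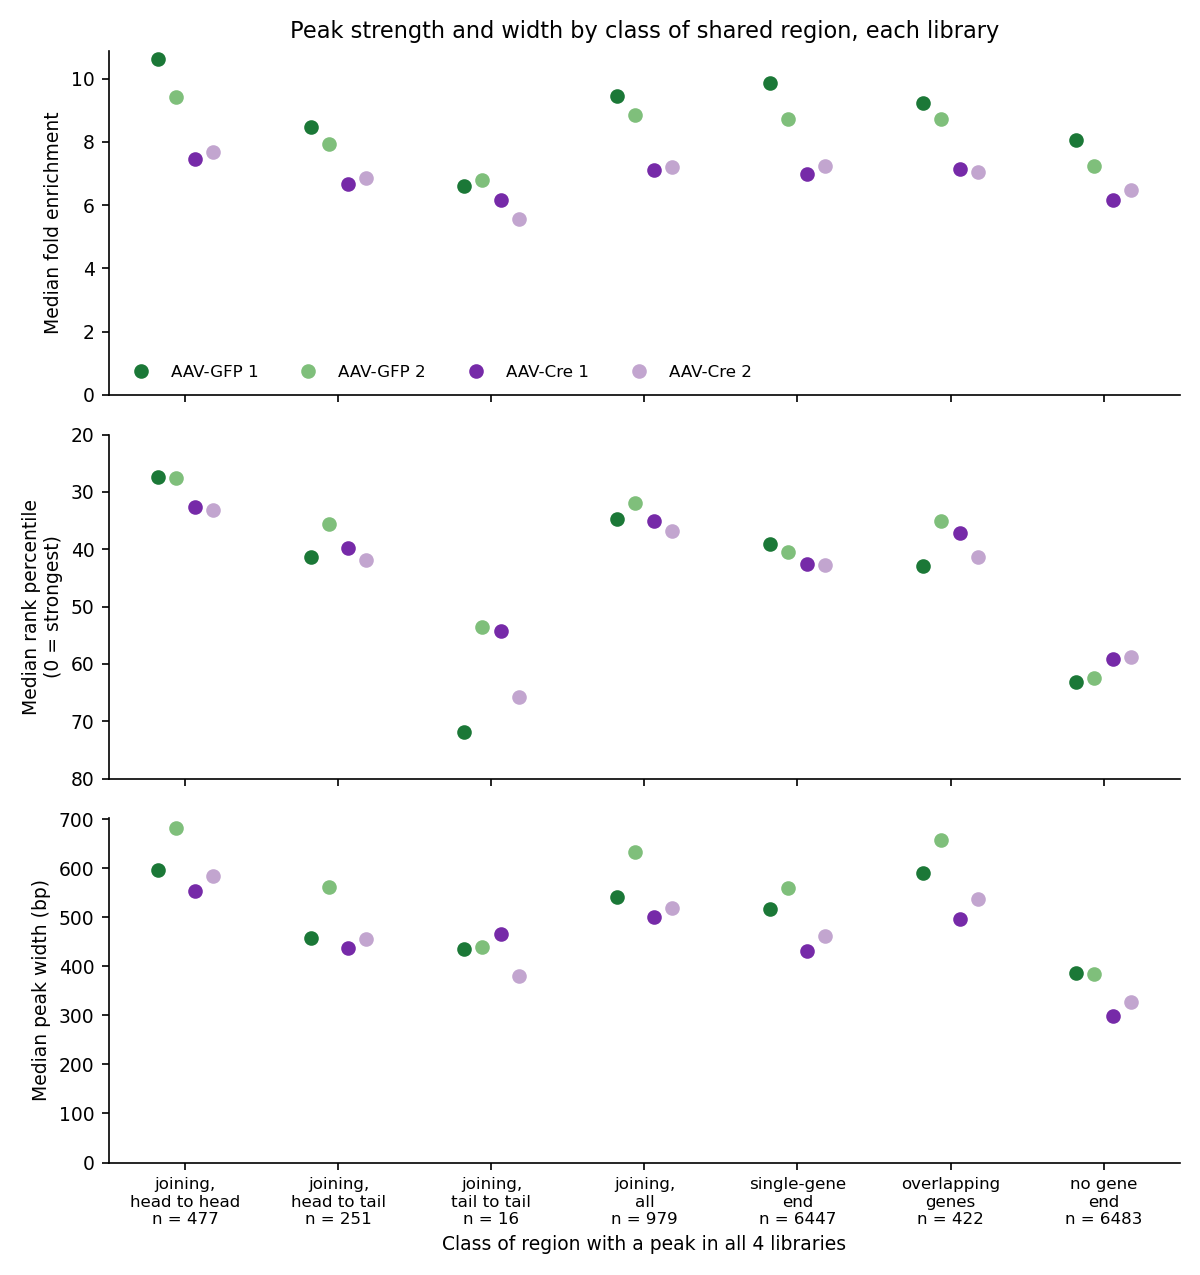
Median fold enrichment (top), median rank percentile by −log10 p with 0 the strongest (middle, axis reversed) and median peak width in bp (bottom) for each class of shared region. Each point is 1 library. Head-to-head regions have the highest median fold in all 4 libraries, and joining regions as a whole lie above single-gene ends in fold in 2 libraries and in rank in all 4.

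The strongest joining region by mean rank was Khsrp/Slc25a41 (chr17:57031452-57032333), at an RNA-binding decay factor and a mitochondrial carrier. Its folds were 12.9, 15.4, 15.5 and 14.1, and its percentiles 0.255 to 1.02. Mrpl41/Pnpla7, a mitochondrial ribosomal protein and a lysophospholipase, had 17.8, 17.8, 15.9 and 15.8 (chr2:24974879-24975523). Zfp654/Cggbp1 had 21.4, 24.5, 16.5 and 17.0 (chr16:64851313-64852334), the highest folds of the 8 leading regions in both AAV-GFP libraries. Rpgrip1l/Fto, a protein of the ciliary base and an RNA demethylase gene whose locus is linked to body weight, had 18.4, 21.1, 18.2 and 17.4 (chr8:91313035-91313891). The 75 bp between these 2 genes lay inside the region. Mrps16/Cfap70 had 17.5, 18.3, 16.9 and 14.0, and Npc2/Isca2, a lysosomal cholesterol carrier and an iron-sulfur assembly factor, had 19.8, 20.1, 19.5 and 15.3. Tbc1d10b/Mylpf had 14.2, 15.1, 11.2 and 14.1. The eighth, at the predicted genes Gm40364/Gm40363, had folds of 5.58, 6.18, 5.80 and 5.73 despite percentiles of 0.771 to 1.49, so its p and its fold disagree. Of these 8 regions, only those at Zfp654/Cggbp1, Rpgrip1l/Fto and Npc2/Isca2 spanned the facing ends of both genes. The Khsrp/Slc25a41 region lay 439 bp from the farther facing end and the Gm40364/Gm40363 region 928 bp. In the strongest 6 regions the AAV-Cre and AAV-GFP mean percentiles differed by 0.0279 to 0.408 points.

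**Figure D3:**
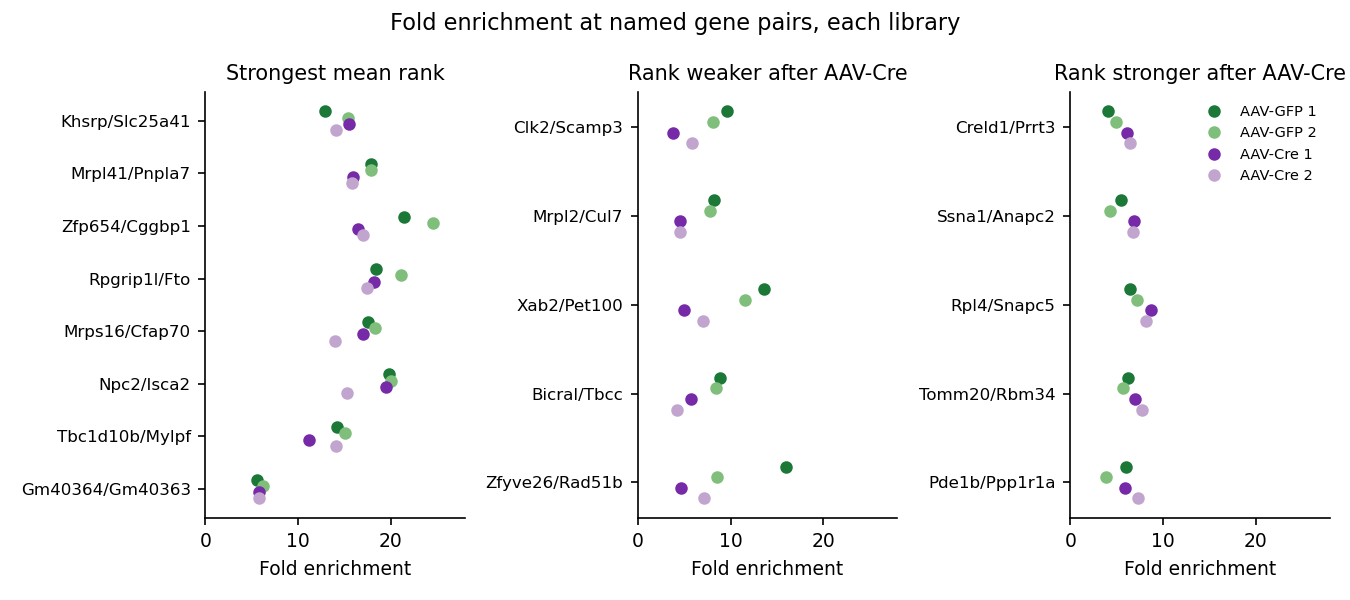
Fold enrichment (x axis, linear from 0) in each library at the 8 joining regions with the strongest mean rank and at the 5 with the largest rank shift in each direction. Folds were not scaled between lists. Each point is 1 library. The 8 leading regions lie between 5.58 and 24.5, and the weaker and stronger sets were chosen for the separation of the groups that they show.

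Regions at the extremes of the class looked different. The region that joined most genes lies on chromosome 18 at the end of the Pcdhg cluster of cell adhesion genes, next to Diaph1, touched 25 annotated genes and had folds of 9.71, 5.56, 4.55 and 6.86. Tomm6/Prickle4 joined 5 genes with 6.80, 7.64, 5.43 and 6.36, and Timm13/Lmnb2 joined 3 with 8.38, 9.16, 9.07 and 7.57. The widest merged regions were LOC108167694/Gm20783 (2942 bp), Madcam1/Tpgs1 (1820 bp) and Lamtor2/Ubqln4 (1759 bp). The narrowest were Usf2/Lsr (237 bp), Cnih2/Rab1b (245 bp) and Paqr7/Aunip (308 bp), with mean percentiles of 79.6, 78.3 and 69.9. The narrow regions were thus among the weaker members. At the edge of the 1 kb window, the last regions inside were Mta2/Tut1 and Egln2/Rab4b, both 999 bp from the second gene end, with mean percentiles of 63.8 and 67.3. The first outside were Ankrd39/Sema4c (1003 bp, 5.54) and Lig4/Abhd13 (1005 bp, 7.43).

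After AAV-Cre the joining regions kept about the same place among shared regions. Their median percentile averaged 33.3 after AAV-GFP and 35.9 after AAV-Cre, a shift of 2.54 points toward weaker (exact 2-sided permutation p = 0.333, the smallest that 2 against 2 libraries allow). The lower AAV-Cre value, 35.0, lay just above the higher AAV-GFP value, 34.8. Ranked by fold enrichment the shift was -0.225 (exact p = 1.0). By −log10 p it was 1.285 without AAV-GFP 2, 1.418 without AAV-Cre 2 and 3.821 without AAV-GFP 1, 4.355 with windows of 500 bp and 10.04 with ranks over each whole list, where the percentile also depends on the length of the list. By −log10 p among shared regions the shift was not particular to joining regions. Single-gene ends went from 39.1 and 40.4 after AAV-GFP to 42.5 and 42.8 after AAV-Cre. Regions at no gene end went the other way, from 63.1 and 62.4 to 59.1 and 58.9. At ends of overlapping genes only the groups overlapped, with 42.9 and 35.1 against 37.2 and 41.4. All 979 joining regions overlapped a peak of the list the authors called on the pooled control group, and 975 (99.6%) one of the AAV-Cre group list. Over all 14331 shared regions the numbers were 14330 and 14272 (99.6%). Each region already had a peak in every library pooled for these lists, so the overlap was nearly set by the rule.

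Single joining regions moved by a median of 8.10 percentile points between the group means, in either direction, against 8.82 at single-gene ends and 9.63 over all shared regions. The 2 AAV-GFP libraries differed from each other by 9.19 points at joining regions and the 2 AAV-Cre libraries by 10.6. The shift is between means of 2 libraries and these differences are between single libraries, which vary more, so the values cannot be set against each other directly. Strong regions move less, so all shared regions were cut into 4 equal classes by mean rank. The strongest class held 40.4% of joining regions and 33.0% of single-gene ends. Within the classes, from strongest to weakest, the median shift was 4.87, 10.6, 11.9 and 9.72 at joining regions and 4.24, 12.2, 13.8 and 9.66 at single-gene ends. The shift at joining regions was the smaller in the 2 middle classes only, with no spread computed for a single class. In those 2 classes the AAV-GFP libraries differed from each other by 13.1 and 15.7 points at joining regions and by 12.6 and 15.6 at single-gene ends. The difference of -0.715 points over all regions was -0.108 without AAV-GFP 1, -1.51 without AAV-Cre 1 and -1.57 without AAV-Cre 2. Its SD over the 4 pairs of 1 AAV-GFP and 1 AAV-Cre library was 0.762, so it was smaller than that spread.

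**Figure D4:**
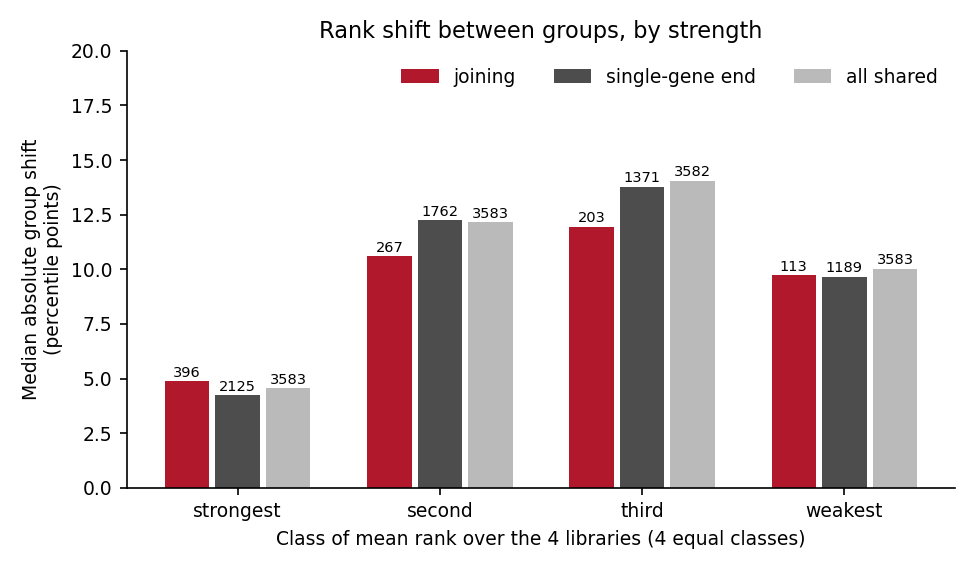
Median absolute rank shift between the groups (y axis, percentile points) for joining regions, single-gene ends and all shared regions, by class of mean rank, each a 4-way equal cut (x axis). Numbers above the bars are regions. Joining regions have 4.87 points in the strongest class, above the 4.24 of single-gene ends, and 10.6 and 11.9 in the middle classes, below 12.2 and 13.8.

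A region was counted as shifted when its group means differed by at least 10 points and the groups did not overlap. By this count 164 of 979 joining regions (16.8%) ranked weaker after AAV-Cre, beside 15.2% of all shared regions and 17.3% of single-gene ends. Another 98 ranked stronger, or 10.01%, beside 15.3% of all shared regions and 11.2% of single-gene ends. The weaker count was near the background and near that of single-gene ends. The stronger count lay below the background, as did that of single-gene ends. With 1 library left out the groups separate more easily, also over all shared regions. The weaker count was then 244 without AAV-GFP 1 (25.0%, beside 22.0% of all shared regions), 241 without AAV-GFP 2 (24.6 beside 24.0%), 283 without AAV-Cre 1 (26.9 beside 25.2%) and 255 without AAV-Cre 2 (24.8 beside 25.6%). The stronger count was 137 (14.0 beside 21.8%), 182 (18.6 beside 24.2%), 172 (16.3 beside 25.4%) and 179 (17.4 beside 25.8%) in the same order. Ranked by fold enrichment, 141 were weaker (14.4 beside 15.6%) and 149 stronger (15.2 beside 15.97%), so the lean toward weaker regions was not present by that measure. Among the groups of genes, again with each gene at its strongest joining region only, 8 of 29 respiratory chain regions and 7 of 18 histone regions ranked weaker, and 3 and 2 stronger. Over all genes counted this way 162 of 952 regions ranked weaker and 96 stronger. The weaker count was 5 of 19 for the Rpl and Rps symbols, 3 of 11 for the synthetases, 4 of 21 for the mitochondrial ribosome, 3 of 16 for DNA repair, 2 of 13 for the proteasome and 2 of 22 for zinc finger genes. The stronger count in these groups was 1, 1, 3, 0, 0 and 0.

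The weaker regions with the largest shift were the following, each chosen for its separation and given with no test. Clk2/Scamp3, a splicing kinase and a membrane trafficking protein (chr3:89177220-89177694), had folds of 9.62 and 8.07 after AAV-GFP and 3.74 and 5.82 after AAV-Cre, and percentiles of 23.3 and 37.7 against 98.1 and 63.9. Mrpl2/Cul7 had percentiles of 31.8 and 34.3 against 78.8 and 80.6. In both pairs the groups did not overlap, but the AAV-Cre libraries of Clk2/Scamp3 lay far apart from each other. The AAV-Cre 1 peak at Clk2/Scamp3 was only 148 bp wide, with a −log10 q of 2.48. Its summit lay 451 bp from the midpoint of the gap, against 112, 46 and 72 bp in AAV-GFP 1, AAV-GFP 2 and AAV-Cre 2. Xab2/Pet100, a repair and splicing factor and a cytochrome oxidase assembly factor, whose sequence is printed above, had folds of 13.6, 11.6, 4.95 and 7.0 and percentiles of 12.2, 19.7, 78.3 and 46.0 (chr8:3621210-3621785). Bicral/Tbcc had percentiles of 26.1, 28.4, 55.5 and 89.3. Zfyve26/Rad51b, of which Rad51b acts in recombination repair, had 11.6, 40.7, 91.6 and 49.2. Its AAV-GFP 2 and AAV-Cre 2 values lay closer to each other than either pair of replicates.

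The stronger regions with the largest shift were weak in the control lists. Creld1/Prrt3 (chr6:113494267-113494731), at an endoplasmic reticulum protein and a membrane protein whose 3′ ends meet, had folds of 4.11 and 4.92 after AAV-GFP and 6.17 and 6.42 after AAV-Cre. Its percentiles were 95.8 and 86.3 against 43.3 and 49.1. Ssna1/Anapc2, a microtubule protein and a subunit of the anaphase-promoting complex, had 83.1 and 93.0 against 43.4 and 45.5. Rpl4/Snapc5 had 78.4 and 64.3 against 28.5 and 36.3, and Tomm20/Rbm34, at an import receptor of mitochondria and an RNA-binding protein, had 80.3 and 75.7 against 42.9 and 35.7. Over these 4 pairs the AAV-GFP percentiles ran from 64.3 to 95.8 and the AAV-Cre percentiles from 28.5 to 49.1. Pde1b/Ppp1r1a, a phosphodiesterase and a phosphatase inhibitor of neuronal cAMP signalling, had 81.0 and 98.7 against 59.1 and 43.3.

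The summit, the point of highest signal in a peak, lay less often between the facing starts in the AAV-Cre libraries. Of the 477 head-to-head regions, 49.3 and 46.1% had their summit between the genes after AAV-GFP, against 35.0 and 37.3% after AAV-Cre (difference -11.5 points, exact 2-sided permutation p = 0.333, the smallest possible with 2 against 2). Its median distance from the midpoint of the gap was 60.5 and 69.5 bp after AAV-GFP and 98.5 and 94.5 bp after AAV-Cre, and the groups did not overlap. The same direction without overlap held for this distance in each of the 4 classes of mean rank, with means of 54.8 against 79.0 bp in the strongest and 78.0 against 122.5 bp in the weakest class. In the 382 head-to-head regions with a single peak in every library it was 55.0 and 64.0 bp against 90.5 and 92.0 bp. These splits were added after the data were seen.

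A difference in the same direction was present at single gene starts, although the distance there was measured from the start and not from a midpoint. At the 4993 regions of single gene starts the median distance of the summit from the start was 85.0 and 97.0 bp after AAV-GFP and 114 and 116 bp after AAV-Cre. The like measure in head-to-head regions is the distance from the nearer gene start. Its medians averaged 52.5 bp after AAV-GFP and 63.5 bp after AAV-Cre. This difference of 11.0 bp compares with 31.5 bp from the midpoint of the gap and 24.0 bp at single starts. The AAV-GFP 2 value lay just below the 61.0 bp of AAV-Cre 2. The size of the difference and the separation of the groups thus depended on the point measured from. The midpoint of the peak lay 86.0, 93.0, 110.5 and 113 bp from the middle of the gap in head-to-head regions. Strength moved with it, since the median −log10 p of head-to-head regions was 37.5, 27.0, 15.1 and 16.1 in the same order, and its part in the distance was not tested. Over all shared regions the median −log10 p was 24.5, 17.8, 11.6 and 12.6. The summits of the 2 AAV-GFP libraries lay a median of 39 bp apart in head-to-head regions and those of the 2 AAV-Cre libraries 58 bp, with 43 to 50 bp between libraries of different groups. In head-to-head regions the AAV-Cre summits thus lay farther from each other than from those of the control libraries. The same held at single-gene ends, with 41 bp within AAV-GFP, 55 bp within AAV-Cre and 49 to 52 bp between groups. Over all shared regions these were 42, 54 and 49 to 51 bp, so the pattern was not particular to facing starts.

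**Figure D5:**
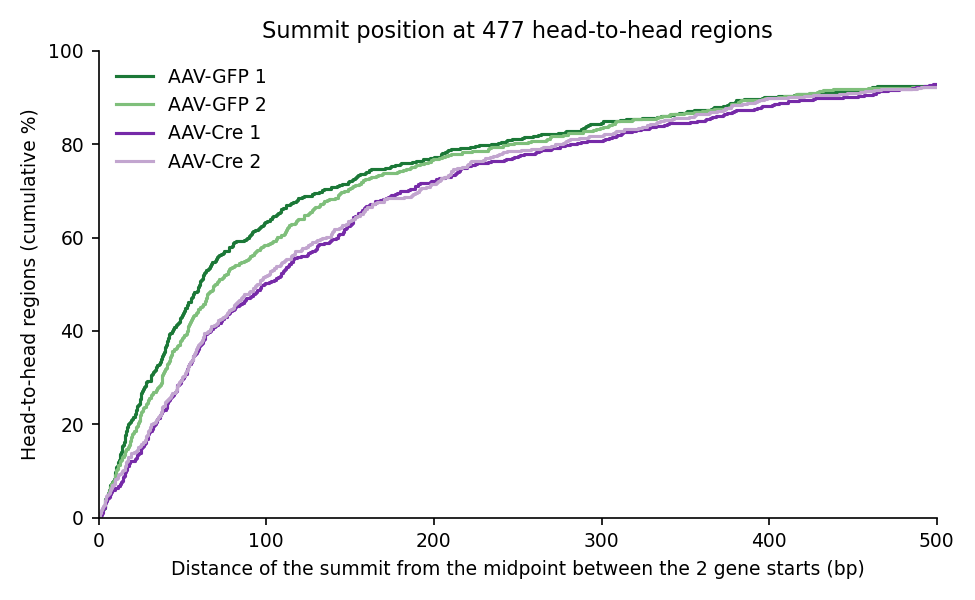
Cumulative share of the 477 head-to-head regions (y axis, %) by distance of the summit from the midpoint between the facing gene starts (x axis, bp, shown to 500). Each line is 1 library. Both AAV-GFP lines rise before both AAV-Cre lines, with medians of 60.5 and 69.5 bp against 98.5 and 94.5 bp.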

How the data were processed

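Peak lists of 4 ATAC-seq libraries were used, 2 after AAV-GFP and 2 after AAV-Cre, grouped by the treatment in the labels. Per the submitters' processing notes, the authors used FastQC, Trim Galore, Bowtie2 and MACS2 with build mm10. The sources used here give no versions, filters, transposase shift, peak threshold or read depth. For each peak the authors deposited a score (the whole part of 10 times −log10 q) and a fold enrichment (the ratio of signal to background at the summit). They also gave −log10 p, −log10 q and the summit position. Ranks and contrasts between classes were formed within a list. Folds and −log10 p printed for several libraries were not scaled between lists. The 2 group lists were called on pooled libraries, per their peak names.

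A region took its strongest peak by −log10 p in each library, and its percentile was counted among the 14331 regions with a peak in all 4. Gene ends came from RefSeq GRCm38.p6, and strand from its promoter table for 16457 of 20665 genes (79.6%); for 9841 of them an outer gene end equals the listed start. Python 3.11.15, pandas 2.3.3 and scipy 1.17.1 were used. The rank calls were run on simulated data with a noise and a shift set by hand. That run checked the code and not the rate of false calls in these data. Medians were compared by exact sign-flip tests over 4 libraries and exact permutation of 2 against 2. The text names the 8 strongest regions, the 5 with the largest shift each way, the 3 with most genes, the 3 widest and 3 narrowest, the known pairs, up to 4 genes of each group and the neighbours of the 1 kb threshold; printed sequences and the tail-to-tail, single-start and summit comparisons were chosen after the data were seen. The regions, gene lists, motifs and rules were chosen with earlier results of these data known. Alternatives changed the window, list length, threshold, ranking, joining rule and libraries. Same-numbered libraries were not treated as pairs. Values of a few known pairs and group members are not reported here.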

Additional observations from a re-analysis of the deposited data

How the results depend on the processing

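Of 109 recomputed values, 13 changed sign and 14 moved. The other 82 kept their direction, counts within 1.5 times and rank stability within 1 SD, while tested values among them could differ in size. The cause was not tested unless given. The log2 ratio of median folds changed sign to 0.0108 when single peaks had to reach both genes, 0.0103 with windows of 500 bp, 0.0168 by region midpoint and 0.0743 for head-to-head regions against single starts, and ran from -0.0058 to 0.0171 with 1 library left out. The percentile difference was 0.198 by fold rank, 0.102 in the strongest and 0.233 in the third of 4 classes of mean rank, and -3.29 to -7.72 over the window, list and peak settings. A cut on mean percentile removes most of a difference in percentile by construction. The signs within these classes therefore cannot show dependence on the processing. The difference in rank stability was 0.634 and 0.0593 in the strongest and weakest classes, -1.63 and -1.83 in the middle classes, and -1.57 to -0.107 with 1 library left out. The group shift was -0.225 by fold rank, 10.04 over whole lists and 1.285 to 3.821 with 1 library left out. Weaker and stronger counts were 346 and 8 with ranks over whole lists, where all shared regions gave 35.2% and 2.48%, since longer lists put the same regions at stronger percentiles. They were 93 and 39 at 20 points, which is stricter by construction, and stronger regions numbered 149 by fold rank. With 1 library left out, weaker regions numbered 241 to 283 and stronger 137 to 182, since fewer libraries must separate. With the replicate block the group shift was 2.54 (exact sign-flip p = 0.5, the smallest for 2 pairs); the numbers did not pair the libraries (r = -0.0173 across regions between the replicate differences of the groups). Depth is unknown, so counts of reads behind a peak, and with them the precision of each fold, could not be given. With 2 libraries a group, no test could reach 0.05.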
